A study of Mus musculus with 9 samples.

Results

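Basement membranes are thin sheets of matrix, and the transcripts of 10 of their genes were followed here in injured mouse muscle. The genes encode the collagen IV chains Col4a1 and Col4a2, the collagens Col15a1 and Col18a1, the laminin chains Lama2, Lama4, Lamb1 and Lamc1, the nidogen Nid1 and the proteoglycan perlecan, Hspg2. They were chosen by name, with earlier results of these data known, and all 10 of the 10 were found among the 54532 genes of the count table. RNA was sequenced from 3 groups of 3 libraries each, of C57/BL6J mice whose tibialis anterior muscle had been injured with barium chloride, which kills muscle fibres and so sets off regeneration. Young PBS mice were 4 months old and received saline after the injury, old PBS mice were 24 months old and received saline, and old rMETRNL mice were 24 months old and received recombinant METRNL, a secreted protein, in 3 injections. Every group had been injured, so no uninjured muscle was compared, and old PBS was the control of old rMETRNL. The series' design text places collection at day 4 and the text of the study at day 8. The labels name a strained suspension of muscle cells, whereas the study describes RNA of whole muscle.

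A muscle fibre and each capillary lie on a basement membrane. Laminin, a trimer of 1 alpha, 1 beta and 1 gamma chain, binds receptors on the cell surface and forms a first network, and collagen IV, a trimer of alpha chains, forms a second. Nidogen and perlecan join these networks. In muscle the laminin with the Lama2 chain anchors the fibre and its stem cells, mutations in Lama2 cause a congenital muscular dystrophy, and Lama4 is a chain of the vessel wall. Collagens XV and XVIII lie at the outer face of the membrane and carry sugar chains, and the end of collagen XVIII is released as endostatin. During regeneration the old membrane sheath guides new fibres, while new membrane is laid down around them and around growing vessels.

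The genes lie on 6 chromosomes. Positions are given on GRCm38, the build of the gene annotation from which lengths were also taken. Col4a1 (ENSMUSG00000031502, chr8:11198423-11312826, minus strand) and Col4a2 (ENSMUSG00000031503, chr8:11312805-11449287, plus strand) are neighbours transcribed away from each other, and their first exons overlap by 22 bases. These bases, at chr8:11312805-11312826, are shown on the plus strand because both genes of the pair start in them, and without a stated strand setting a read there cannot be given to either gene.
Col4a1 and Col4a2: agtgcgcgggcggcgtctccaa
Col15a1 (ENSMUSG00000028339, chr4:47208161-47313167, plus) and Hspg2 (ENSMUSG00000028763, chr4:137468769-137570630, plus) share a chromosome. Col18a1 (ENSMUSG00000001435, chr10:77052178-77166548, minus), Lama2 (ENSMUSG00000019899, chr10:26980036-27619758, minus) and Lama4 (ENSMUSG00000019846, chr10:38965515-39110188, plus) lie apart on another. Lamb1 (ENSMUSG00000002900) is at chr12:31265234-31329644 on the plus strand, Lamc1 (ENSMUSG00000026478) at chr1:153218922-153332786 on the minus strand and Nid1 (ENSMUSG00000005397) at chr13:13437551-13512269 on the plus strand.

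Promoter windows, from 250 bases before to 50 bases after each start in RefSeq (GRCm38.p6), were found for 8 of the 10 genes, with 9 windows in all. Only the 250 bases before the start were searched, on both strands, for 3 motifs, none of which contains another. The windows of Col4a1 and Col4a2 overlap each other, though not in these 250 bases. GGGCGG, the GC box, was in these bases of 5 of the 9 windows and of 32.7% of all 32851 windows. CCAAT was in 5 of the 9 and in 33.8% of all, and TATAAA was in 0 of the 9 and in 12.4% of all. The median GC content of these bases was 62.0% for the 9 windows and 52.4% for all windows. A further start of Col18a1, with its window at chr10:77113656-77113955, had none of the 3 motifs in these bases and is not shown. Upstream stretches are shown for Col18a1, whose transcript differed most between the groups, and for Lamb1, whose old PBS libraries lay apart from both other groups. A stretch is also shown for Col15a1, whose searched bases held none of the 3 motifs. Capitals mark GGGCGG and CCAAT on either strand, and each is written 5′ to 3′ on the strand of its gene, at chr10:77166549-77166780 (minus), chr12:31265043-31265233 (plus) and chr4:47207762-47208011 (plus).
Col18a1: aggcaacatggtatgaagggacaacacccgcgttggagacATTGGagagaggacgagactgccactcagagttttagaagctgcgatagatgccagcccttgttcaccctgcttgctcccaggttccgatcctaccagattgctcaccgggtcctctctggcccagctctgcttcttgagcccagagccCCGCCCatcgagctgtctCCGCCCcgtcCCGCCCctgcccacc
Lamb1: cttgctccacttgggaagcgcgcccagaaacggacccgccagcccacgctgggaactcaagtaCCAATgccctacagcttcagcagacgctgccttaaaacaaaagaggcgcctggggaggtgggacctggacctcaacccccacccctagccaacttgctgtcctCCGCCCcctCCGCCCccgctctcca
Col15a1: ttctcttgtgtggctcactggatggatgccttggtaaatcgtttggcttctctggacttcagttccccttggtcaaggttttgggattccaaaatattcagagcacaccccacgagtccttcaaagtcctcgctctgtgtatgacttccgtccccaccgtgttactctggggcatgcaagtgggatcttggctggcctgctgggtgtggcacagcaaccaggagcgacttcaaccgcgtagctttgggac

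The libraries held 16238700 to 22522560 counts. Levels below are CPM, counts scaled to a common library size after TMM, which corrects each library for its composition, and the scaling factors ran from 0.827 in old PBS 4 to 1.16 in old PBS 3. The 10 genes together took between 0.0990% of counts, in old PBS 4, and 0.386%, in old rMETRNL 1. Of each gene, 278 or more reads were counted in every library, and all 10 passed the filter on low counts in every comparison. Libraries of 1 group were further apart than counting alone gives (chi-square over its degrees of freedom, 10.9 to 169). The labels do not say that libraries came from separate animals, so p-values measure the spread between these libraries. Transcripts of 8 mature fibre genes, among them Ckm and Acta1, made up 9.07 to 12.1% of counts in every library, so fibre RNA was abundant although the label names a cell suspension. Transcripts of 8 brain genes summed to 45.3 to 109 CPM in the old PBS libraries and to at most 1.16 CPM in the others, and those of 8 liver genes to 26.3 to 97.98 CPM and at most 13.6 CPM. These genes mark tissues other than muscle, and their part in the results below was not tested.

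All 10 transcripts had a lower mean in old PBS than in young PBS, and all 10 had a higher mean in old rMETRNL than in old PBS. The largest differences were those of Col18a1, with a young PBS level 2.11-fold that of old PBS and an old rMETRNL level 1.99-fold that of old PBS. The smallest were those of Lama2, 1.25-fold and 1.21-fold. No transcript passed the threshold of an adjusted p of 0.05 in edgeR's quasi-likelihood test or in DESeq2 in any comparison. The old PBS libraries differed among themselves by up to 3.82-fold (Col18a1), and old PBS 4 was the lowest library for all 10. In bulk RNA, fewer cells of a type and less RNA per cell cannot be told apart.

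**Figure D1:**
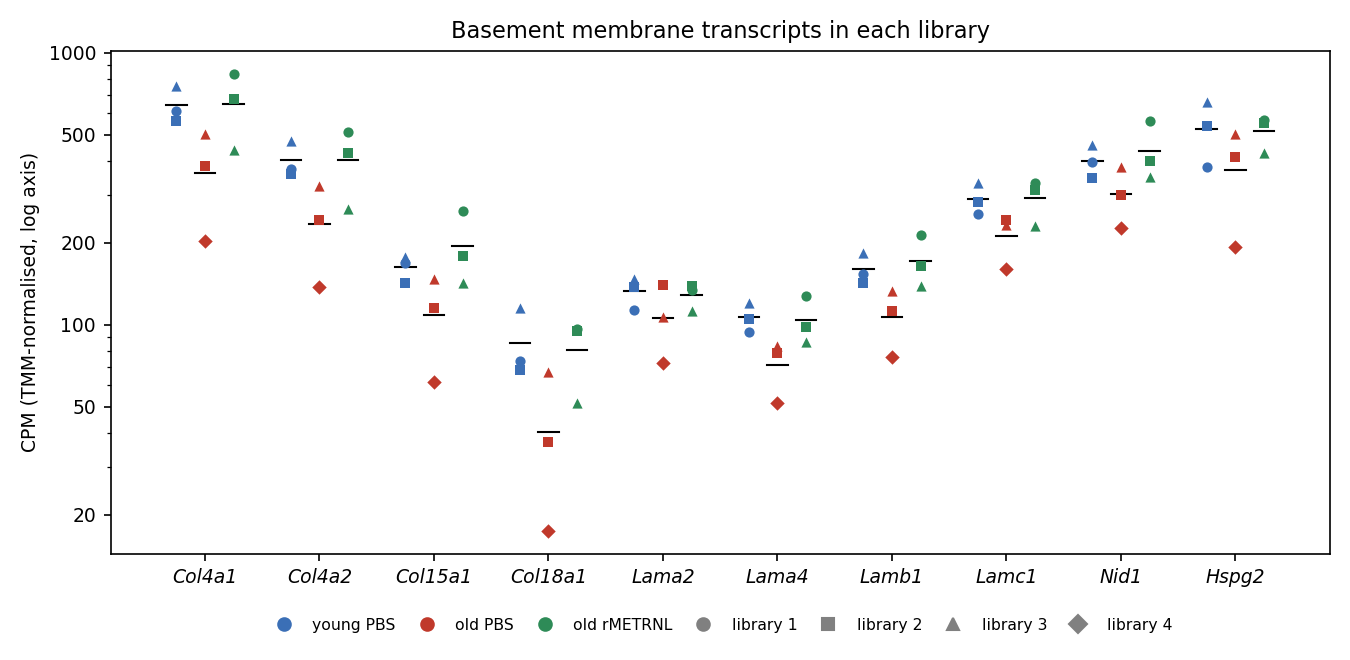
Level of each of the 10 transcripts in CPM (TMM-normalised, log axis) in every library, coloured by group, with the mean of each group as a line and the library number as the marker shape. Old PBS 4 (diamonds) is the lowest point of every gene, whereas old PBS 3 lies among the libraries of the other groups for 7 of the 10.

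Col4a1 and Col4a2 form the common collagen IV trimer, with 2 copies of the first chain and 1 of the second. Col4a1 was at 611, 561 and 754 CPM in young PBS 1, 2 and 3, at 383, 502 and 202 CPM in old PBS 2, 3 and 4, and at 837, 673 and 439 CPM in old rMETRNL 1, 2 and 3. Every old PBS library was below every young PBS library, while old PBS 3 was above old rMETRNL 3. The log2 fold change of Col4a1 was -0.83 (SE 0.33, edgeR adjusted p = 0.772) for old PBS against young PBS and 0.84 (SE 0.36, adjusted p = 0.613) for old rMETRNL against old PBS. Col4a2 was at 375, 359 and 475 CPM in young PBS, at 243, 323 and 138 CPM in old PBS, and at 511, 429 and 265 CPM in old rMETRNL. Its libraries stood in the same pattern, with old PBS below young PBS and with overlap between old PBS and old rMETRNL. Its log2 fold changes were -0.78 (SE 0.31, edgeR adjusted p = 0.771) and 0.77 (SE 0.35, adjusted p = 0.635).

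Col15a1 and Col18a1 belong to the multiplexins, collagens with an interrupted triple helix. Col15a1 was at 168, 143 and 178 CPM in young PBS, at 116, 148 and 61.4 CPM in old PBS, and at 261, 179.6 and 142 CPM in old rMETRNL. Old PBS 3 lay just above young PBS 2 and old rMETRNL 3, so both pairs of groups overlapped. The log2 fold change of Col15a1 was -0.59 (SE 0.30, edgeR adjusted p = 0.939) for old PBS against young PBS and 0.84 (SE 0.34, adjusted p = 0.569) for old rMETRNL against old PBS. Col18a1 was at 73.5, 68.0 and 115 CPM in young PBS, at 36.9, 66.9 and 17.5 CPM in old PBS, and at 96.2, 94.8 and 51.6 CPM in old rMETRNL. It had the widest spread in old PBS, where old PBS 3 was 3.82-fold above old PBS 4 and within about 1 CPM of young PBS 2. Its log2 fold changes were -1.08 (SE 0.44, edgeR adjusted p = 0.779) and 0.99 (SE 0.44, adjusted p = 0.619).

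Lama2 and Lama4 encode alpha chains, the chains through which laminins bind their receptors. Lama2, the chain of the fibre's own membrane, was at 114, 138 and 148 CPM in young PBS, at 140.1, 107 and 72.2 CPM in old PBS, and at 134, 139 and 112 CPM in old rMETRNL. It departed from the other genes in old PBS 2, which was the second highest of the 9 libraries for Lama2. The log2 fold change of Lama2 was -0.33 (SE 0.25, edgeR adjusted p = 0.994) for old PBS against young PBS and 0.27 (SE 0.25, adjusted p = 0.796) for old rMETRNL against old PBS. Lama4, the vascular chain, was at 93.9, 105 and 121 CPM in young PBS, at 78.7, 83.4 and 51.4 CPM in old PBS, and at 127, 98.5 and 86.5 CPM in old rMETRNL. The old PBS libraries of Lama4 did not overlap either other group, although old PBS 3 and old rMETRNL 3 were close. Its log2 fold changes were -0.58 (SE 0.22, edgeR adjusted p = 0.737) and 0.54 (SE 0.23, adjusted p = 0.610).

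Lamb1 and Lamc1 encode a beta and a gamma chain that are shared by laminins of different alpha chains. Lamb1 was at 154, 142 and 184 CPM in young PBS, at 112, 133 and 76.3 CPM in old PBS, and at 213, 164 and 139 CPM in old rMETRNL. Its old PBS libraries were below all 6 others, the highest of them close to the lowest of each other group. The log2 fold change of Lamb1 was -0.58 (SE 0.23, edgeR adjusted p = 0.783) for old PBS against young PBS and 0.68 (SE 0.25, adjusted p = 0.527) for old rMETRNL against old PBS. Lamc1 was at 255, 283 and 333 CPM in young PBS, at 243, 232 and 160.3 CPM in old PBS, and at 331, 312 and 231 CPM in old rMETRNL. Old PBS was below young PBS in every library, and old rMETRNL 3 was below both old PBS 2 and old PBS 3. Its log2 fold changes were -0.46 (SE 0.22, edgeR adjusted p = 0.916) and 0.46 (SE 0.24, adjusted p = 0.666).

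Nid1 and Hspg2 encode the linkers between the laminin and collagen IV networks. Nid1 was at 396, 347 and 458 CPM in young PBS, at 301, 380.3 and 227 CPM in old PBS, and at 561, 401 and 348 CPM in old rMETRNL. Old PBS 3 lay within the range of both other groups. The log2 fold change of Nid1 was -0.41 (SE 0.24, edgeR adjusted p = 0.980) for old PBS against young PBS and 0.53 (SE 0.27, adjusted p = 0.666) for old rMETRNL against old PBS. Hspg2 was at 379.6, 536 and 661 CPM in young PBS, at 415, 500.2 and 193 CPM in old PBS, and at 563, 551 and 427 CPM in old rMETRNL. Its young PBS libraries were themselves spread, and young PBS 1 was below both old PBS 2 and old PBS 3. Its log2 fold changes were -0.51 (SE 0.37, edgeR adjusted p = 0.994) and 0.47 (SE 0.34, adjusted p = 0.748).

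The comparison of old PBS with young PBS asks how age bears on injured muscle. In it 0 of the 10 genes passed the threshold of edgeR, beside 0.0643% of the 15560 genes tested, and 0 passed in DESeq2, beside 1.33% of 19855. Of all genes that passed in edgeR, 0 were lower in old PBS. At an unadjusted p under 0.05, 5 of the 10 were lower in old PBS (Col4a1, Col4a2, Col18a1, Lama4 and Lamb1), beside 2.42% of all genes that were lower at that level. The groups did not overlap for 6 of the 10 (these 5 and Lamc1), all with old PBS lower, beside 5.25% of all genes. All 10 log2 fold changes were below 0, beside 47.9% of all genes, with a median of -0.58 beside 0.014 for all genes. The 10 genes were measured in the same libraries and vary together, so these are not counts of independent results. The count at an unadjusted p under 0.05 changed when single libraries were left out, as given below. The 95% intervals of the log2 fold changes ran from -2.07 to 0.33 over the 10 genes.

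The comparison of old rMETRNL with old PBS asks how the treatment bears on old injured muscle. In it 0 of the 10 genes passed the threshold of edgeR, beside 0.108% of the 15682 genes tested, and 0 passed in DESeq2, beside 1.92% of 18874. Of all genes that passed in edgeR, 0 were higher in old rMETRNL. At an unadjusted p under 0.05, 5 of the 10 were higher in old rMETRNL (Col4a1, Col15a1, Col18a1, Lama4 and Lamb1), beside 3.51% of all genes that were higher at that level. The groups did not overlap for 2 of the 10, Lama4 and Lamb1, beside 6.95% of all genes with old rMETRNL higher. All 10 log2 fold changes were above 0, beside 49.3% of all genes, with a median of 0.61 beside -0.0056 for all genes. The 95% intervals ran from -0.29 to 1.98. This comparison and the one between ages share the old PBS libraries, so a low level in an old PBS library moves both differences, in opposite directions.

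The means of old rMETRNL and young PBS lay close together. Their log2 fold changes ran from -0.083 (SE 0.24) for Col18a1 to 0.25 (SE 0.19) for Col15a1, with a median of 0.00015 beside 0.00089 for all genes, and 5 of the 10 were above 0, beside 50.2% of all genes. In this comparison 0 of the 10 genes passed in edgeR or DESeq2, beside 0 of 15396 genes in edgeR and 0 in DESeq2, and 0 of the 10 had an unadjusted p under 0.05, beside 2.41% of all genes. The groups overlapped for all 10, whereas 3.92% of all genes were higher and 2.95% lower in old rMETRNL without overlap. The edgeR adjusted p was 0.9996 for each, and the 95% intervals, from -0.62 to 0.67, leave room for differences of up to about that size in either direction. The signs themselves depended on single libraries.

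**Figure D2:**
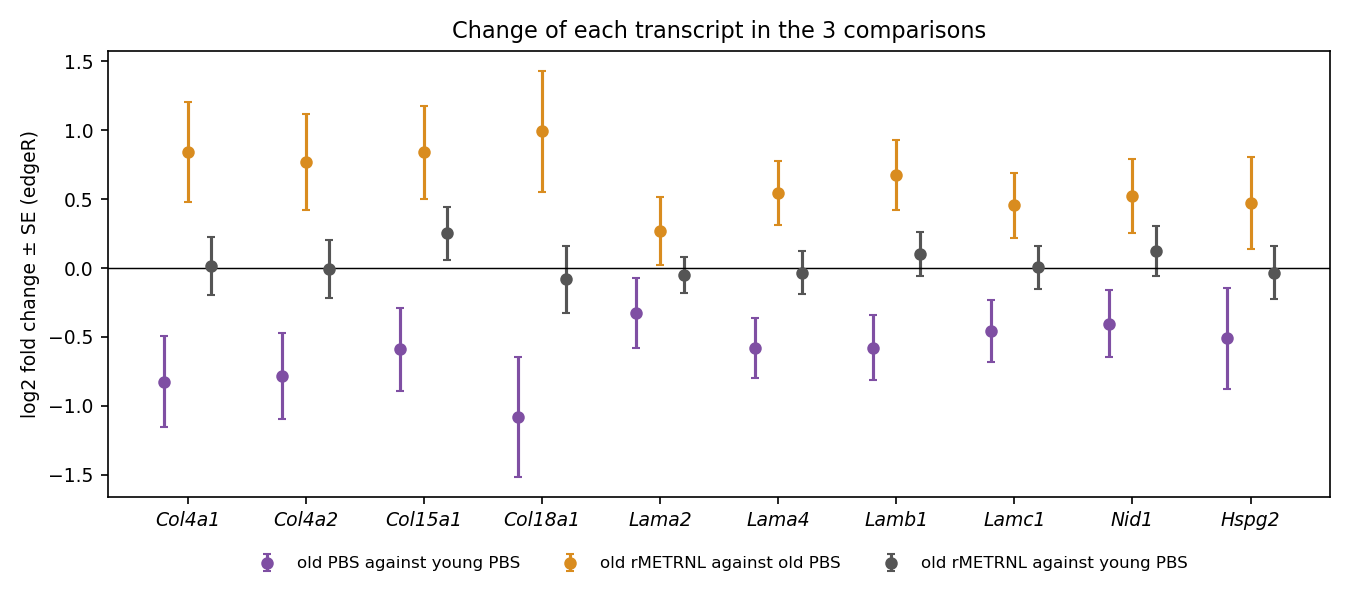
Log2 fold change (edgeR, with its SE as bars) of each of the 10 transcripts in the 3 comparisons, which are marked by colour. All 10 lie below 0 for old PBS against young PBS, all 10 above 0 for old rMETRNL against old PBS, and between -0.083 and 0.25 for old rMETRNL against young PBS.

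The old PBS libraries differed among themselves. Old PBS 4 was the lowest of the 9 libraries for 10 of the 10 genes, whereas 25.7% of the 16124 genes kept over the 3 groups were lowest there. Old PBS 2 was below all 6 libraries of the other groups for 7 of the 10 genes, beside 28% of all genes, and old PBS 3 for 3 of the 10, beside 20.8%. Old PBS 3 exceeded old PBS 4 by 1.45-fold (Lamc1) to 3.82-fold (Col18a1). The coefficient of variation of the levels was 21.3 to 61.6% in old PBS, 11.0 to 30.2% in young PBS and 11.1 to 31.3% in old rMETRNL. It was largest in old PBS for 9 of the 10 genes, beside 67.9% of all genes, and the exception was Nid1. At the other end, old rMETRNL 1 was the highest library for 6 of the 10 genes, beside 12.4% of all genes.

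Each library was left out in turn. Without old PBS 4, the median log2 fold change of the 10 genes was -0.35 for old PBS against young PBS and 0.41 for old rMETRNL against old PBS, and the number of the 10 with an unadjusted p under 0.05 was 1 and 0, beside 2.05% of all genes that were lower and 3.25% that were higher at that level. Without old PBS 3 the medians were -0.78 and 0.81, and these numbers were 8 and 9, in fits where 10.3% and 13.5% of all genes were lower and higher, respectively, at that level. The lowest adjusted p for old PBS against young PBS was then 0.0528, for Col18a1. For old rMETRNL against old PBS, 3 of the 10 then passed the threshold of edgeR: Col18a1 with a log2 fold change of 1.57 (SE 0.35, adjusted p = 0.0227), Col15a1 with 1.13 (SE 0.31, adjusted p = 0.0477) and Lamb1 with 0.87 (SE 0.24, adjusted p = 0.0455). Beside these 3, 9.76% of all genes passed in that fit, and 3.78% passed with old rMETRNL higher. Without old PBS 2 the medians were -0.62 and 0.67, and 1 and 0 genes had an unadjusted p under 0.05, beside 1.37% and 2.08% of all genes in the same directions. The young PBS and old rMETRNL libraries bore on these numbers too. Without young PBS 1, 2 or 3 the number for old PBS against young PBS was 2, 1 and 0, beside 1.74, 1.55 and 0.844% of all genes, with medians of -0.64, -0.63 and -0.48. Without old rMETRNL 1, 2 or 3 the number for old rMETRNL against old PBS was 0, 0 and 6, beside 1.27, 1.84 and 2.88% of all genes, with medians of 0.45, 0.65 and 0.73. All 10 genes kept the direction of both differences without any 1 library.

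**Figure D3:**
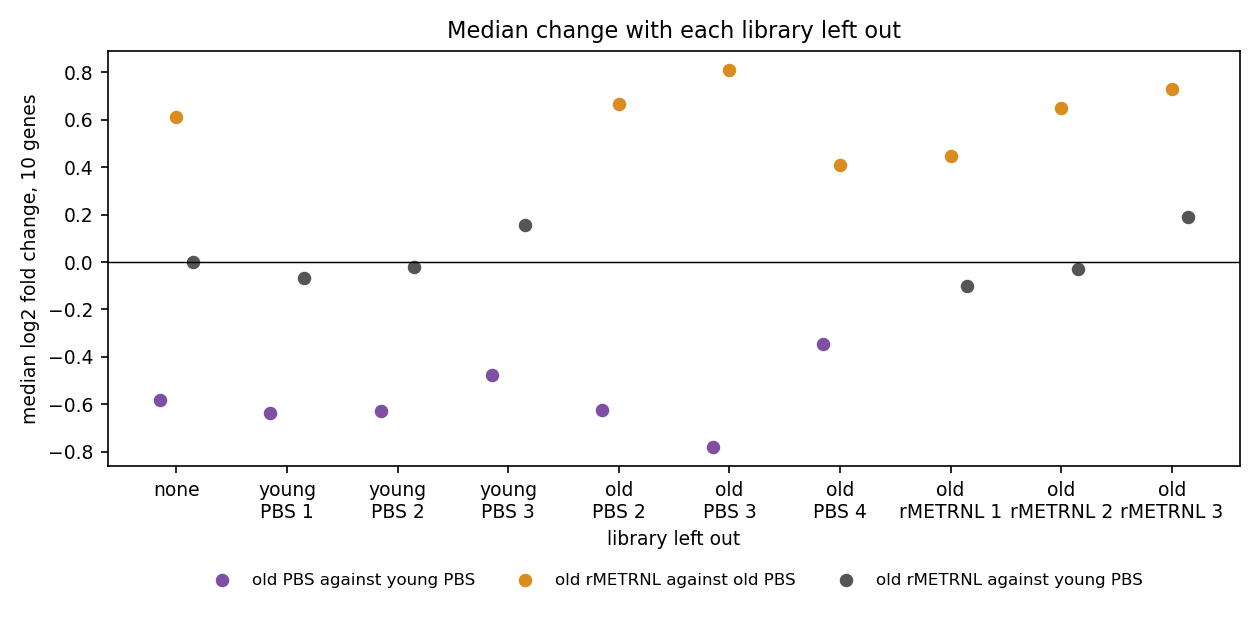
Median log2 fold change of the 10 genes in each comparison (colours) with all libraries and with each library left out (x axis). The age and treatment comparisons are closest to 0 without old PBS 4, at -0.35 and 0.41, and farthest from 0 without old PBS 3, at -0.78 and 0.81.

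To order the 10 genes by level, CPM were divided by exon length, as CPM per kb. In young PBS Col4a1 was highest, at 86.0 ± 13.4 CPM per kb (SD, n = 3), followed by Col4a2 at 60.9 ± 9.51, Nid1 at 57.7 ± 8.06, Hspg2 at 36.7 ± 9.84 and Lamc1 at 35.1 ± 4.73. Below them came Col15a1 at 25.7 ± 2.83, Lamb1 at 16.1 ± 2.14, Col18a1 at 12.2 ± 3.68, Lama4 at 8.82 ± 1.11 and Lama2 at 8.15 ± 1.07 CPM per kb. Within this order Col4a2 and Nid1, Hspg2 and Lamc1, Col18a1 and Lama4, and Lama4 and Lama2 were closer than the larger SD of the pair. The collagen IV and linker transcripts thus had the highest means and the alpha chains of laminin the lowest.

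In old PBS, Col4a1 was again highest, at 48.5 ± 20.2 CPM per kb (SD, n = 3), before Nid1 at 43.6 ± 11.0 and Col4a2 at 35.4 ± 14.1. Hspg2 followed at 25.8 ± 11.1, Lamc1 at 25.6 ± 5.45, Col15a1 at 17.0 ± 6.87 and Lamb1 at 10.8 ± 2.91. Lama2 at 6.51 ± 2.08, Lama4 at 5.90 ± 1.43 and Col18a1 at 5.76 ± 3.55 CPM per kb were last. Neighbours were separated by more than the larger SD only between Lamc1 and Col15a1 and between Lamb1 and Lama2. Col18a1 stood last in old PBS and above both alpha chains in the other groups, within the spread of these libraries. In old rMETRNL the levels were 87.0 ± 26.8 for Col4a1, 62.9 ± 16.03 for Nid1, 60.7 ± 18.9 for Col4a2, 35.9 ± 5.26 for Hspg2 and 35.2 ± 6.38 CPM per kb for Lamc1. Then came Col15a1 at 30.6 ± 9.57, Lamb1 at 17.3 ± 3.81, Col18a1 at 11.5 ± 3.61, Lama4 at 8.62 ± 1.73 and Lama2 at 7.87 ± 0.877 CPM per kb. There the neighbours Col4a2 and Hspg2, Col15a1 and Lamb1, and Lamb1 and Col18a1 were separated by more than the larger SD.

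**Figure D4:**
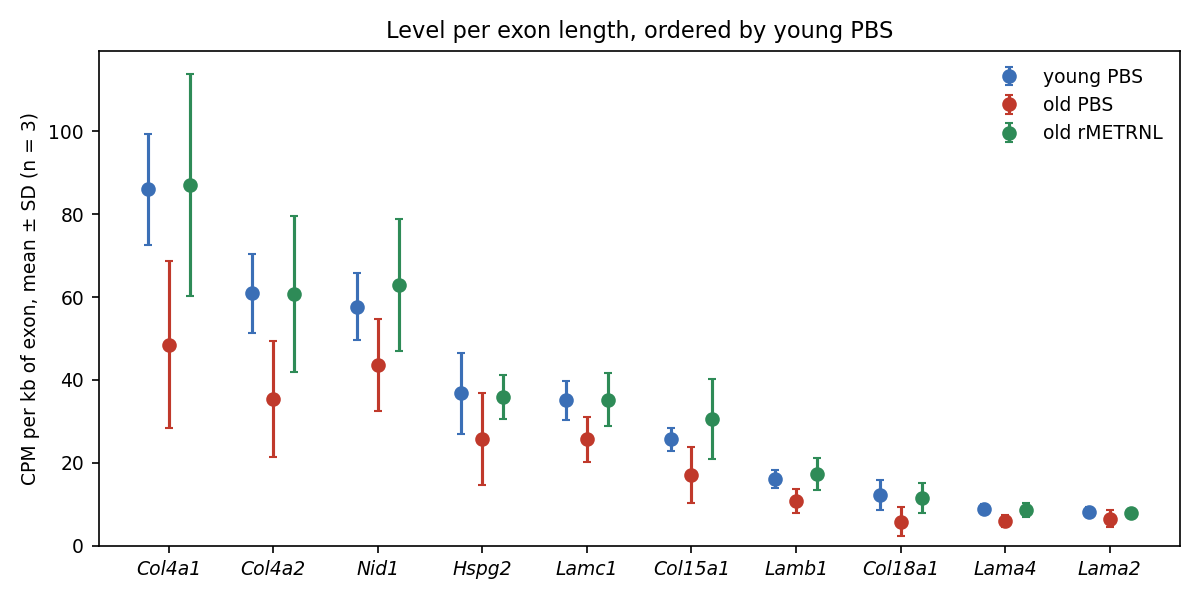
Level of each transcript per exon length (CPM per kb, mean with SD as bars, n = 3 libraries), with genes in the order of young PBS and groups by colour. Col4a1 is highest in each group, at 86.0, 48.5 and 87.0 CPM per kb in young PBS, old PBS and old rMETRNL, and the means of Lama2 and Lama4 stay below 10 throughout.

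Ratios within a library do not depend on its scaling, and 3 were taken between paired chains. The ratio of Col4a2 to Col4a1 counts was 0.628 ± 0.013 (SD, n = 3) in young PBS, 0.653 ± 0.024 in old PBS and 0.617 ± 0.018 in old rMETRNL. The collagen IV pair thus kept a narrow ratio while each chain varied over 3-fold between libraries, and per exon length Col4a1 exceeded Col4a2 by 1.30-fold to 1.47-fold. The ratio of Lama2 to Lama4 counts, of the fibre's alpha chain to the vascular one, was 1.25 ± 0.057, 1.49 ± 0.26 and 1.26 ± 0.18. The ratio of Col15a1 to Col18a1 counts was 1.98 ± 0.39, 2.95 ± 0.67 and 2.45 ± 0.48. In 9 comparisons of these ratios, exact two-sided permutation tests gave p between 0.2 and 1, and 0.45 to 1 after Benjamini-Hochberg adjustment, where 3 libraries against 3 cannot go below 0.1.

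Laminin chains were also summed by kind, over all alpha, beta and gamma genes. The summed alpha chains were at 22.5 ± 2.70 CPM per kb (SD, n = 3) in young PBS, 17.3 ± 4.41 in old PBS and 21.9 ± 2.25 in old rMETRNL. The beta chains were at 45.5 ± 2.85, 37.1 ± 2.30 and 46.0 ± 6.36 CPM per kb, and the gamma chains at 35.6 ± 4.73, 26.2 ± 5.56 and 35.7 ± 6.37 CPM per kb. Beta chains were thus the most abundant kind in every group, and in that kind Lamb2, which is not among the 10 genes, was more abundant than Lamb1.

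The 10 genes varied together over the 9 libraries. Pearson's r of each with the mean of the other 9 on the log2 scale ran from 0.824 for Lama2 to 0.990 for Col4a1. Outside the 10, the genes whose profile was most like their mean were Atp8b2 and Fam129a (r = 0.995 each), Pxdn (r = 0.987), Sec31a (r = 0.986), Cdh5 (r = 0.985), Dock1 (r = 0.982), Iqgap2 and Coro1c (r = 0.978 each), Pald1 (r = 0.975) and Uhrf1 (r = 0.973). Pxdn encodes peroxidasin, the enzyme that crosslinks collagen IV, Cdh5 the cadherin of endothelial junctions and Sec31a a coat protein of vesicles that leave the endoplasmic reticulum. Pxdn was at 133 ± 25.5 CPM (SD, n = 3) in young PBS, 77.7 ± 32.8 in old PBS and 141 ± 25.4 in old rMETRNL, and Cdh5 at 131 ± 12.0, 97.3 ± 27.8 and 128 ± 20.2. These correlations are descriptions over 9 libraries that share the low old PBS 4. Without it, 3 of these 10 genes remained among the 10 most alike, and 3 did so by Spearman's rho.

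Of 12 other chains of basement membrane collagen IV, laminin and nidogen, 10 were tested for old PBS against young PBS and 10 for old rMETRNL against old PBS. In edgeR 0 passed in either comparison, and in DESeq2 0 and 1. At an unadjusted p under 0.05 there was 1 in each, Lamc3, which was higher in old PBS than in both other groups and is named after its values were seen. Over all genes, 3.5% were higher in the first comparison and 4.57% lower in the second at that level. The median log2 fold changes of these other chains were -0.027 and 0.14, beside -0.58 and 0.61 for the 10 genes, a difference that was not tested. Lamb2, the beta chain of the neuromuscular synapse, was at 176 ± 4.67 CPM (SD, n = 3) in young PBS, 156 ± 15.7 in old PBS and 171 ± 17.7 in old rMETRNL. Lama5, an alpha chain of vessels and epithelia, was at 58.7 ± 4.84, 52.8 ± 11.8 and 58.3 ± 1.08 CPM. Nid2, the second nidogen, was at 56.2 ± 6.34, 41.8 ± 17.2 and 60.2 ± 19.6 CPM, and Col4a5, a minor collagen IV chain, at 14.8 ± 2.08, 14.6 ± 5.77 and 17.7 ± 1.89 CPM. The edgeR adjusted p of these 4 genes was 0.719 or more in both comparisons.

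Among 17 secreted proteins that bind basement membranes, 0 passed in edgeR in either comparison, with 3 at an unadjusted p under 0.05 for old PBS against young PBS (Sparc and Pxdn lower, Smoc1 higher) and 4 for old rMETRNL against old PBS (Sparc, Pxdn and Hmcn2 higher, Smoc1 lower). Over all genes, 2.42% were lower and 3.5% higher at that level in the first comparison, and 3.51% higher and 4.57% lower in the second. In DESeq2 0 and 1 of the 17 passed, and the medians of the 17 were -0.18 and 0.42. Sparc, a calcium-binding protein that binds collagen IV and other collagens, was the gene that passed in DESeq2. It was at 1826 ± 219 CPM (SD, n = 3) in young PBS, 1016 ± 338 in old PBS and 2061 ± 511 in old rMETRNL, with a log2 fold change of -0.85 (SE 0.29, edgeR adjusted p = 0.674) between the ages. For old rMETRNL against old PBS its log2 fold change was 1.02 (SE 0.32, edgeR adjusted p = 0.406, DESeq2 adjusted p = 0.0175). Its old PBS libraries, at 744 to 1394 CPM, did not overlap either other group. Hmcn2, a hemicentin, was at 153 ± 11.7, 119.9 ± 22.5 and 189 ± 21.8 CPM, with a log2 fold change of 0.65 (SE 0.20, edgeR adjusted p = 0.405) for old rMETRNL against old PBS. Fbln2, a fibulin, was at 159 ± 27.2, 147 ± 12.3 and 176 ± 37.3 CPM. Smoc2, a relative of Sparc, was at 158 ± 9.89, 178 ± 58.7 and 155 ± 18.9 CPM, and had its highest mean in old PBS.

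Of 14 receptors for laminin and collagen IV, 0 passed in edgeR or in DESeq2 in either comparison, and 0 and 1 had an unadjusted p under 0.05 (Itga2, an integrin subunit for collagens and laminins, higher in old rMETRNL), with medians of -0.22 and 0.17. At that level 5.91% of all genes were called in the first comparison, and 3.51% were higher in the second. Itgb1, the beta subunit of the integrins that bind laminins and collagens, was at 458 ± 28.9 CPM (SD, n = 3) in young PBS, 419 ± 80.2 in old PBS and 445 ± 16.6 in old rMETRNL. Dag1, dystroglycan, the receptor that links Lama2 to dystrophin, was at 334 ± 17.5, 282 ± 69.6 and 337 ± 31.9 CPM. Itga7, the laminin-binding integrin subunit of fibres, was at 176 ± 15.4, 149 ± 51.3 and 189 ± 36.9 CPM, and Sdc3, a syndecan, at 104 ± 18.5, 81.2 ± 33.6 and 108 ± 17.6 CPM. In each of these 4 the old PBS libraries overlapped both other groups. Of 10 genes of collagen folding and secretion, 0 passed in edgeR or DESeq2, and at an unadjusted p under 0.05 the same 2, Serpinh1, the collagen chaperone, and Plod1, a lysyl hydroxylase, were lower in the first comparison and higher in the second, with medians of -0.27 and 0.25. Over all genes, 2.42% were lower in the first and 3.51% higher in the second, and both comparisons share the old PBS libraries.

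The fibrillar collagens, which build the interstitial matrix rather than basement membranes, were measured alongside. Of 11 such genes 0 passed in edgeR and 3 in DESeq2 (Col1a2, Col3a1 and Col24a1) for old PBS against young PBS, beside 1.33% of all genes in DESeq2. At an unadjusted p under 0.05 there were 9, all lower, beside 2.42% of all genes, and the median was -1.01. For old rMETRNL against old PBS, 10 were tested, 0 passed in edgeR and the same 3 in DESeq2, beside 1.92% of all genes in DESeq2. At an unadjusted p under 0.05 there were 8, all higher, beside 3.51% of all genes, and the median was 0.96. Both comparisons share the old PBS libraries, so the second count is not independent of the first. Their sum was 11669 to 17887 CPM in young PBS, 3753 to 9545 CPM in old PBS and 10536 to 17326 CPM in old rMETRNL. The sum of the 10 basement membrane genes was 2620 to 3426, 1199 to 2476 and 2242 to 3634 CPM. Both sums were lowest in old PBS 4, next lowest in old PBS 2, and whether their changes differ in size was not tested.

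Markers of the cells that make basement membrane were summed in the same libraries. The sum of 10 endothelial genes, with Pecam1 and Cdh5 among them, was 477 to 559 CPM in young PBS, 351 to 487 CPM in old PBS and 469 to 622 CPM in old rMETRNL, and none of these genes passed in edgeR or DESeq2. Of the 10 endothelial genes, 9 were below 0 for old PBS against young PBS, beside 47.9% of all genes. For old rMETRNL against old PBS 9 were above 0, beside 49.3% of all genes. Their medians were -0.34 and 0.41, in the directions of the basement membrane genes. In none of the lists of cell types was a gene at 3 counts or fewer in every library. The sum of 8 genes of pericytes and smooth muscle was 835 to 915, 715 to 970 and 761 to 913 CPM, with medians of -0.13 and 0.28. The sum of 8 genes of fibro-adipogenic progenitors, the stromal cells of muscle, was 1870 to 2508, 1677 to 3004 and 2260 to 3071 CPM, with medians of -0.10 and 0.36. Old PBS 4, lowest for every basement membrane gene, had the highest sum of these stromal genes in its group. Gsn and Dcn weigh most in that sum, at 894 and 781 CPM over the 9 libraries, beside 86.0 for Pdgfra. Of the 8 genes, 4 were below 0 and 4 above 0 for old PBS against young PBS. Without overlap, 2 (Pdgfra and Cd34) were lower than in young PBS, beside 5.25% of all genes. In old rMETRNL 3 (these and Lum) were higher than in old PBS without overlap, beside 6.95%. The sum of 8 macrophage genes was 1658 to 1944, 1191 to 1741 and 1802 to 2090 CPM, with medians of -0.33 and 0.39. All 8 macrophage genes were below 0 in the first comparison and above 0 in the second, beside the same shares of all genes.

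The sum of 8 genes of myogenic cells and new fibres was 726 to 1175 CPM in young PBS, 247 to 3251 CPM in old PBS and 764 to 1322 CPM in old rMETRNL. Myh8 and Myh3 weigh most in this sum, at 623 and 364 CPM over the 9 libraries. Old PBS 4 held the lowest of these sums and old PBS 3 the highest, at the same end of the old PBS group as their basement membrane sums. Old rMETRNL did not follow this order. There old rMETRNL 1 had the highest basement membrane sum of the 9 libraries, 3634 CPM, but the lowest myogenic sum of its group, 764 CPM. Mature fibre genes summed to 107200 to 126227, 78062 to 142034 and 103595 to 113408 CPM. The sum of 8 Schwann cell genes was 27.1 to 41.7, 52.2 to 80.1 and 30.9 to 35.0 CPM, and that of 8 tendon genes 319 to 665, 226 to 288 and 357 to 445 CPM. Fat cell genes summed to 203 to 341, 181 to 382 and 269 to 529 CPM, and immediate early genes, which respond to tissue handling, to 176 to 196, 179.5 to 282 and 162 to 205 CPM. The part of any of these cell types in the levels of the 10 genes was not tested.

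**Figure D5:**
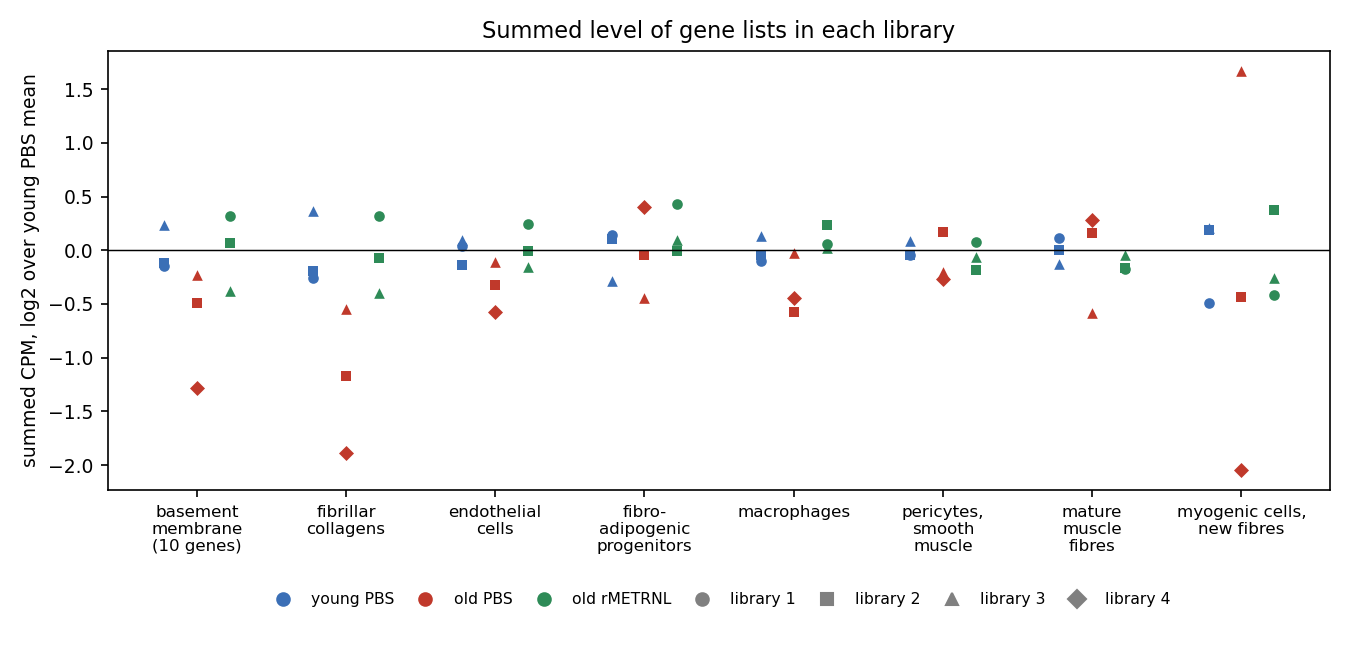
Summed CPM of the 10 basement membrane genes and of 7 other gene lists in each library, as log2 over the mean of young PBS (line at 0), coloured by group and with the library number as the marker shape. Old PBS 4 (diamond) is at -1.28 for the basement membrane genes and lowest of the 9 libraries for fibrillar collagens and for endothelial, pericyte and myogenic genes, but not for the fibro-adipogenic, macrophage or mature fibre genes.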

How the data were processed

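The authors deposited raw counts, the whole number of reads per Ensembl gene and library, without normalization and with replicates kept apart. Library preparation used the NEBNext Ultra kit, and reads were paired-end. The submitters' processing notes name STAR, featureCounts and mm9, whereas the gene identifiers are those of later annotations. Versions and the strand setting are not given in the sources used here. Of the 54532 identifiers, 54409 matched a symbol of GENCODE vM21 (GRCm38), which also gave positions and exon lengths. Groups followed the labels. Each pair of groups was compared on its 6 libraries with edgeR 4.0.16 in R 4.3.3 (filterByExpr, TMM, glmQLFit, glmQLFTest, Benjamini-Hochberg adjustment over all genes, threshold 0.05). In simulated data edgeR recovered 187 to 199 of 200 changed genes, with 7 to 14 false calls. DESeq2 recovered 194 to 198, with 16 to 43 false calls. The simulated counts had the spread per gene that edgeR estimated, for genes kept by its filter. How many of the genes that passed only in DESeq2 are false calls was therefore not tested. The median absolute log2 fold change of the changed genes was 1.99 to 2.01. With all libraries, the largest change among the basement membrane genes was -1.08 (Col18a1), so recovery at their sizes was not tested. Intervals are 95%. CPM used TMM factors of all 9 libraries. Likeness was Pearson's r of log2 CPM with a prior count of 2. DESeq2 1.42.0 was an alternative, and so were its size factors, no filter, a fit of 9 libraries, a block for replicate number, and each library left out.

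All 10 genes were named, together with the 4 genes of highest mean CPM, not divided by length, of each related list (other chains, associated proteins, receptors) and the 10 genes most like their mean profile. The genes, lists and tests were chosen with earlier results of these data known. Ratios were compared with exact permutation tests. Totals of 16238700 to 22522560 counts limit precision little for these genes, for which the spread between libraries is larger than counting error.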

Additional observations from a re-analysis of the deposited data

How the results depend on the processing

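All 10 genes kept the direction of their difference in old PBS against young PBS and in old rMETRNL against old PBS under every alternative run. None passed the threshold in the first. In the second, 2 passed without the filter (Col15a1, log2 fold change 0.85, adjusted p = 0.0250, and Col18a1, 1.01, adjusted p = 0.00195, where 0.541% of 28995 genes passed higher), and 0 to 3 with 1 library left out, the 3 without old PBS 3. Between old rMETRNL and young PBS, where all differences are small, signs changed. With the replicate block Col4a1 was at -0.017 and Lamc1 at -0.0016. With 1 library left out the log2 fold changes ran from -0.207 to 0.234 for Col4a1, -0.215 to 0.221 for Col4a2, -0.0187 to 0.435 for Col15a1, -0.227 to 0.192 for Col18a1, -0.156 to 0.0373 for Lama2, -0.203 to 0.0835 for Lama4, -0.0818 to 0.234 for Lamb1, -0.0947 to 0.147 for Lamc1, -0.0977 to 0.264 for Nid1 and -0.224 to 0.166 for Hspg2, and the log2 ratio of Lama2 to Lama4 from -0.0949 to 0.116. The cause was not tested.

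Over all genes, 10 passed for old PBS against young PBS, 354 without the filter, 265 in DESeq2, 63 in the fit of 9 libraries and 2 to 401 with 1 library left out. For old rMETRNL against old PBS 17 passed, and these numbers were 740, 362, 71 and 3 to 1560, with 65 under the block. Between old rMETRNL and young PBS 0 passed, 132 without the filter and 0 to 1 with 1 library left out. Replicate numbers were not taken to pair the libraries. Same-numbered libraries had deviations that correlated at 0.11 and 0.41 between young and old PBS, where 2 of the 2 old PBS libraries that share a number correlated best with it, a hint from fewer than 3 pairs. The correlations were -0.049 and -0.32 between old PBS and old rMETRNL, and 0.023, -0.051 and -0.18 between old rMETRNL and young PBS, where 0 of 3 old rMETRNL libraries correlated best with their own number. With the replicate block the median of the 10 genes was -0.39, 0.22 and -0.012 in the 3 comparisons. In the comparisons with old PBS, numbers 1 and 4 each occur in 1 group only, so the block takes up those libraries. These differences, and the 65 genes under the block, therefore rest on the libraries numbered 2 and 3 and leave out old PBS 4. The spread of 3 libraries a group, rather than depth, limits what can be detected: the 95% interval of Col18a1 between the ages ran from -2.07 to -0.086.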

Other observations

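Of 27 other basement membrane chains and associated proteins tested in both comparisons, 8 had both log2 fold changes opposite in sign to those of the 10 genes: Col4a3, Col4a4, Lamb3, Lamc3, Egflam, Npnt, Smoc1 and Smoc2. The share of all genes with such a pair of signs was not computed. Both comparisons share the old PBS libraries, so the 2 signs of a gene are not independent and the count is a description only. Lamc3 and Smoc1, which alone among the 8 had an unadjusted p under 0.05, are described here and were picked out after their values were seen. Lamc3, a laminin gamma chain, was at 0.462 to 0.778 CPM in young PBS, 1.14 to 1.89 CPM in old PBS and 0.136 to 0.340 CPM in old rMETRNL, without overlap, and its lowest library held 3 counts. Its log2 fold change for old rMETRNL against old PBS was -2.42 (SE 0.52, edgeR adjusted p = 0.141, DESeq2 adjusted p = 0.0280), and for old PBS against young PBS 1.14 (SE 0.43, edgeR adjusted p = 0.742). Smoc1, a relative of Sparc, was at 1.97 to 3.11, 3.57 to 5.04 and 2.26 to 3.001 CPM in the same groups, with log2 fold changes of -0.79 (SE 0.28, edgeR adjusted p = 0.485) and 0.72 (SE 0.30, edgeR adjusted p = 0.797) in the same order of comparisons. The old PBS libraries that held more of both also held the brain gene transcripts, at 45.3 to 109 CPM, and the part of these in the levels of Lamc3 and Smoc1 was not tested.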
